A study of Mus musculus with 12 samples.

Results

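Mismatch repair and repeat instability genes were followed in mouse embryonic stem cells as these turned into neurons. The set was given by name and holds 8 genes: Msh3, Msh6, Mlh3, Pms1, Pms2, Fan1, Lig1 and Ogg1. In the platform annotation, 13 probe sets carried 1 of these names as their single gene symbol, out of 34945 probe sets with a single symbol. They covered 7 of the 8 genes, among 18193 genes named this way, and Fan1 was not analysed here. Affymetrix mouse arrays measured 4 groups of 3 samples: CAG150 at day 6, HM1 at day 6, CAG150 at day 4 and HM1 at day 4 after neuronal differentiation was started. Groups follow the sample titles: the descriptions of all 3 HM1 samples titled day 6 give day 4 instead, so the HM1 day comparison, the line comparison at day 6 and the difference between the day differences rest on those titles, and the descriptions of all 6 samples titled day 6 give replicate 1. HM1 is a line of Hprt-deficient embryonic stem cells of the mouse. CAG150 cells carry, per the series title, expanded CAG repeats, and the labels name neither the gene that holds the repeats nor a parent line or clone. There was 1 line of each kind, and no label says whether replicates are separate cultures, so the spread behind each p-value may be technical only.

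Mismatch repair corrects bases that DNA polymerase has mispaired and loops that form where a strand slips within a repeat. MutS complexes recognise the fault: Msh6 is the partner in the complex that binds single mismatches and short loops, and Msh3 the partner in the complex that binds longer loops. MutL complexes act next, and Pms2, Pms1 and Mlh3 are alternative subunits of them. Lig1 seals the nick that remains after new DNA has been laid down, in replication and in repair. Ogg1 is a glycosylase that removes oxidised guanine in base excision repair, and Fan1 is a nuclease that works on crosslinked DNA. In human Huntington's disease, variants near several of these genes are associated with the age at onset. In mice, loss of Msh3 or of Mlh3 reduces the further growth of expanded CAG repeats in body tissues.

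Promoter sequence is shown for the members that hold letters of the E2F type, named after transcription factors that act on many genes of DNA replication. These letters were chosen after the data and these promoters had been seen, so the shares below are descriptions and no test of the members. The letters searched, on both strands, were TTTCCCGC, TTTCGCGC, TTTGGCGC and TTTGCCGC, in windows from 250 bases before to 50 bases after each annotated start (RefSeq, GRCm38.p6). All 8 genes matched an entry, and 3 of the 8 held such letters, against 2.6% of all 27025 genes in the table and 2.26% of its 32851 windows. Among genes with a window, the share was 8 of 18 in a DNA replication list (44.4%), 4 of 15 in mismatch repair partners (26.7%) and 1 of 9 in other repeat instability modifiers (11.1%). It was 1 of 18 in base excision repair and 1 of 18 in Fanconi repair (5.56% each), and 0 of 6 in postmitotic neuron markers. The matches are given as 30-base stretches, read 5′ to 3′ on the gene's own strand, with the matching letters in capitals.
Msh3: gccgtcaagTTTGGCGCGAAAtcgcagccc
Msh6: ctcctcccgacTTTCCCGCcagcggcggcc
Lig1: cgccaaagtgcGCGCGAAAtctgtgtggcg
The Msh3 stretch is chr13:92355185-92355214 on the minus strand, and 2 matches on opposite strands overlap in it, at 202 to 195 and 198 to 191 bases before the start (-202 to -195 and -198 to -191). The Msh6 stretch is chr17:87975054-87975083 on the plus strand, with the match 16 to 23 bases into the gene. The Lig1 stretch is chr7:13278841-13278870 on the plus strand, at the second of 3 annotated starts, with the match on the opposite strand at 27 to 34 bases into the gene. Windows of Mlh3, Pms1, Pms2, Fan1 and Ogg1 held none of these letters. A match describes the letters only and says nothing about binding in these cells.

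The 250 bases before the Msh3 start (chr13:92355004-92355253, minus strand) are shown in full because they hold both overlapping matches, again in capitals.
Msh3 upstream: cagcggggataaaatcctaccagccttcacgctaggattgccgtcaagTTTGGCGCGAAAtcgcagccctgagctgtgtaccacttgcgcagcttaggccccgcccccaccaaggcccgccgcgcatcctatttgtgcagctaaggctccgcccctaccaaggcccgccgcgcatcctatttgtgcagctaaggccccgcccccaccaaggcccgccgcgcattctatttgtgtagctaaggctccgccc
The whole window of 300 bases, of which this is the upstream part, held 4 copies of the GC box letters GGGCGG on either strand, which 35.7% of all windows also held at least once.

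Values are intensities on a linear scale, as the authors deposited them, with each array scaled to a trimmed mean of 150. Differences are of log2(intensity + 16) with their standard error (SE), from a limma fit to all 12 arrays in which each gene is read by its brightest probe set, and folds are taken from them. They understate the change of dim genes. A gene passed at a Benjamini-Hochberg adjusted p under 0.05 over the 12280 genes with enough signal. All 7 measured genes were among these, and 12 of their 13 probe sets passed the same filter, an intensity of about 11.9. Median intensities ranged from 19.2 to 25.9 between arrays, and the number of arrays limits the precision. Htt, the Huntington's disease gene, was lower in CAG150 cells at both days on its brightest probe set (-0.48 ± 0.12 at day 4, adjusted p = 0.016, and -0.86 ± 0.12 at day 6, adjusted p = 0.00027). All 12 markers of postmitotic neurons lay above the filter, and their summed intensity was 20404 to 21726 in CAG150 and 14270.3 to 16244 in HM1 cells at day 6, against 3134 to 3601 in CAG150 and 4211 to 4458 in HM1 cells at day 4. In the day 4 sums, Stmn2 alone averaged 607 in CAG150 and 2108 in HM1 cells. Marker by marker at day 4, 10 of the 12 differences of CAG150 minus HM1 lay above 0 and 2 below.

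Between day 6 and day 4, most of the mismatch repair genes were lower at day 6 in both lines. In CAG150 cells 5 of the 7 measured genes fell and 0 rose (Msh3, Msh6, Mlh3, Pms1 and Lig1), where 21.9% of all genes fell and 22.5% rose. In HM1 cells 4 of the 7 fell and 0 rose (Msh3, Msh6, Mlh3 and Lig1), where 18.5% of all genes fell and 20.4% rose. The same 4 genes fell in both lines, and 13.8% of all genes did so. With arrays centred on their medians, 1974 of all genes rose and 3474 fell in CAG150 cells, against 2760 and 2693 as deposited, and 1750 rose and 3085 fell in HM1 cells, against 2500 and 2273. The falls that passed ranged from 1.35-fold to 1.54-fold, and the median fall of all genes that fell was 1.43-fold in CAG150 and 1.38-fold in HM1 cells. The median difference over the 7 genes was -0.53 in CAG150 and -0.43 in HM1 cells, against 0.00 over all genes in both. In these bulk samples, fewer cells of a type and less RNA per cell cannot be told apart.

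**Figure D1:**
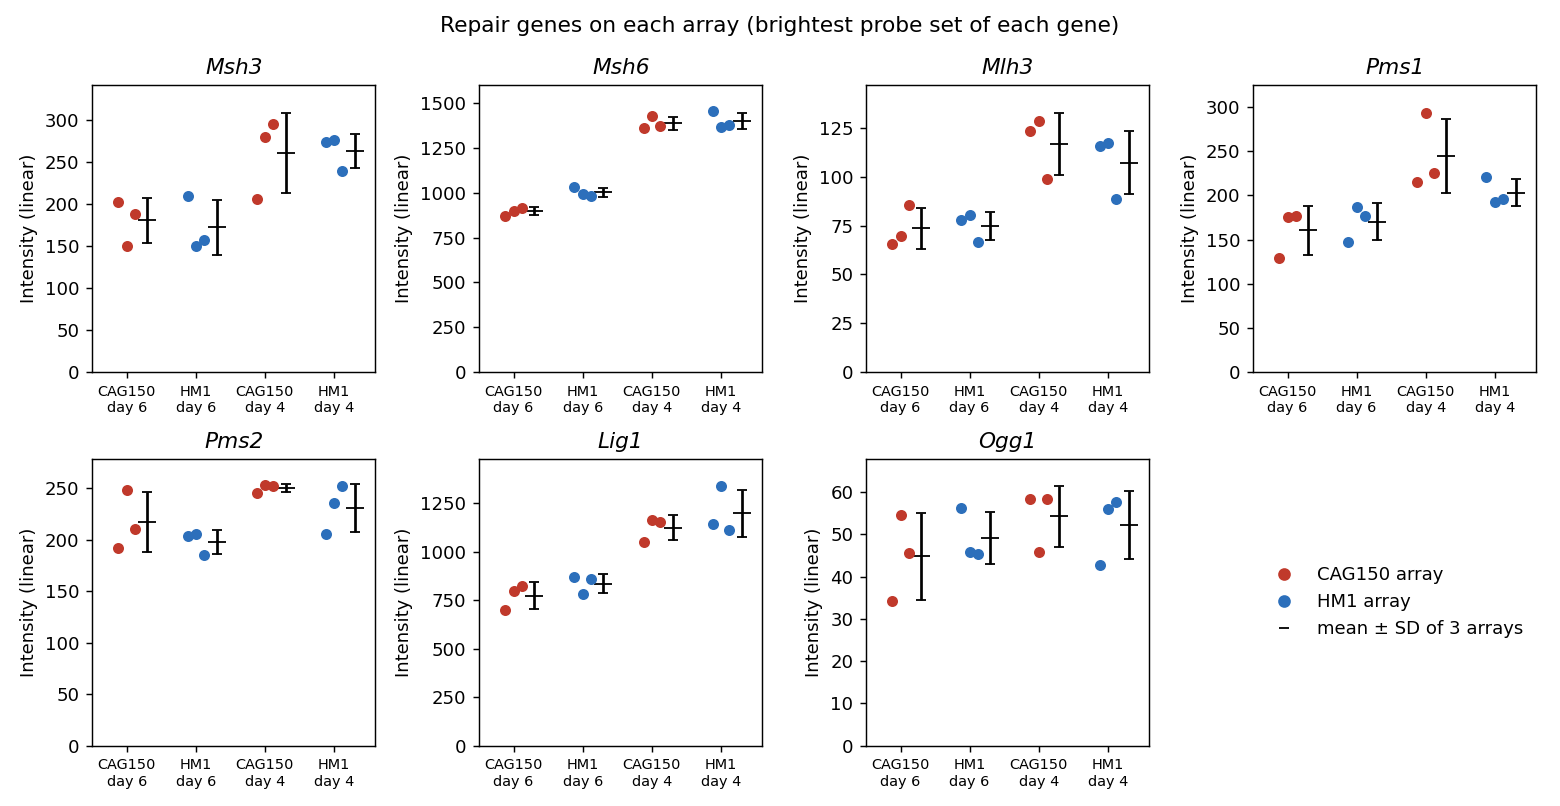
Intensity (linear, from 0) of the brightest probe set of each of the 7 measured genes on each of the 12 arrays. Points are arrays, red for CAG150 and blue for HM1, and black marks are means ± SD of 3 arrays. For Msh6, Mlh3, Pms1 and Lig1 all day 6 arrays lie below all day 4 arrays, narrowly so for Mlh3 and Pms1, while for Ogg1 the days overlap in both lines.

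Msh6, which reads single mismatches, gave the most even values of the set. In CAG150 cells it read 874, 898 and 919 at day 6, against 1364, 1429.6 and 1373 at day 4. In HM1 cells it read 1032, 993 and 986 at day 6, against 1455, 1369 and 1382 at day 4. Every day 6 array lay below every day 4 array, whichever line it came from. The fall was 1.54-fold in CAG150 cells (-0.62 ± 0.07, n = 3 each, limma adjusted p = 1.8e-05) and 1.39-fold in HM1 cells (-0.48 ± 0.07, adjusted p = 0.00021). Ranked among all 12280 genes from the steepest fall, these differences stood at the percentiles 7.83 and 9.35.

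Msh3, the MutS subunit for longer loops, fell by a like amount with a wider spread. In CAG150 cells it read 203, 150.4 and 189 at day 6, against 206, 279 and 296 at day 4. In HM1 cells it read 209.5, 150.5 and 157 at day 6, against 274, 276 and 239.7 at day 4. The groups did not overlap in either line, although replicate 1 of CAG150 at day 4 stood only just above the highest day 6 array of that line. The difference was -0.49 ± 0.15 in CAG150 (adjusted p = 0.022) and -0.58 ± 0.15 in HM1 cells (adjusted p = 0.0099). The call in CAG150 was lost without any 1 of 3 arrays: replicate 2 or 3 of day 4 (adjusted p = 0.074 and 0.086) or replicate 2 of day 6 (adjusted p = 0.091).

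Msh3 was read by 4 probe sets, and they did not all go the same way. Fitted over all 27022 probe sets, the second brightest, 1422261_a_at, read 44.8, 46.4 and 36.6 at day 6 and 76.4, 65.5 and 62.4 at day 4 in CAG150 cells, and fell there too (-0.52 ± 0.14, adjusted p = 0.011). In HM1 cells it read 36.6, 48.8 and 29.2 at day 6 and 51.9, 42.9 and 55.9 at day 4, where the groups overlapped (-0.30 ± 0.14, adjusted p = 0.13). The next, 1446511_at, had intensities of 10.8 to 31.4 and differences of 0.23 ± 0.19 in CAG150 and 0.12 ± 0.19 in HM1 cells, neither of which passed. The dimmest, 1430643_at, read between 0.252 and 5.5 on all arrays and was not tested. With the mean of the 4 probe sets in place of the brightest, Msh3 no longer passed in CAG150 (-0.18, adjusted p = 0.10) or in HM1 cells (-0.20, adjusted p = 0.079).

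Mlh3, a MutL subunit with endonuclease activity, fell in both lines. In CAG150 cells it read 65.8, 69.6 and 85.6 at day 6, against 123, 128 and 98.8 at day 4. HM1 cells had 77.7, 80.4 and 66.5 at day 6, against 116, 117 and 88.7 at day 4. No day 6 array reached a day 4 array, and replicate 3 was the lowest of its group at day 4 in each line. The fall was 1.48-fold in CAG150 (-0.57 ± 0.13, adjusted p = 0.0031) and 1.35-fold in HM1 cells (-0.43 ± 0.13, adjusted p = 0.017). In HM1 cells it did not pass without replicate 1 or 2 of day 4 (adjusted p = 0.061 and 0.065) or without replicate 3 of day 6 (adjusted p = 0.067).

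Pms1, a MutL subunit with a less clear role in repair, fell in CAG150 cells. There it read 129, 176 and 177 at day 6, against 215, 293 and 225 at day 4. HM1 cells had 147, 187 and 177 at day 6, against 221, 193 and 196 at day 4. The groups did not overlap in either line, but in HM1 cells the gap between the highest day 6 and the lowest day 4 array was small. The difference was -0.56 ± 0.14 in CAG150 (1.48-fold, adjusted p = 0.0060) and -0.24 ± 0.14 in HM1 cells (adjusted p = 0.21). The lines were not shown to differ in this, since the difference between them was -0.32 ± 0.20 (adjusted p = 0.47).

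Pms2, the MutL endonuclease subunit of the main repair pathway, did not pass in either line. It read 192, 249 and 211 at day 6 and 246, 253 and 252 at day 4 in CAG150 cells (-0.20 ± 0.10, adjusted p = 0.13). It read 204, 205 and 185 at day 6 and 206, 235 and 252 at day 4 in HM1 cells (-0.21 ± 0.10, adjusted p = 0.13). All 3 HM1 arrays of day 6 lay below those of day 4, the highest of them by less than 1 unit (205.3 against 205.9), while in CAG150 the days overlapped. With arrays centred on their medians, Pms2 passed in CAG150 (-0.30, adjusted p = 0.035) and in HM1 cells (-0.31, adjusted p = 0.033).

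The other 2 probe sets of Pms2 were dimmer, and 1436273_at lay above 0 in both lines. On 1436273_at, CAG150 cells read 44.0, 46.8 and 48.0 at day 6 and 33.5, 20.0 and 32.2 at day 4, and this probe set rose (0.50 ± 0.14, adjusted p = 0.019). HM1 cells read 45.0, 40.9 and 40.6 at day 6 and 45.5, 33.9 and 26.8 at day 4 there (0.19 ± 0.14, adjusted p = 0.36). On 1432421_at the differences were -0.10 ± 0.12 in CAG150 and 0.06 ± 0.12 in HM1 cells, with intensities of 17.4 to 31.8. With the mean of the 3 probe sets, the sign for Pms2 turned to 0.07 in CAG150 and 0.02 in HM1 cells, so no direction is given for this gene.

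Lig1, the ligase that joins Okazaki fragments, fell in both lines. In CAG150 cells it read 699, 799.6 and 827 at day 6, against 1050.2, 1166 and 1157 at day 4. HM1 cells had 868, 783 and 859 at day 6, against 1146, 1339 and 1112 at day 4. As for Msh6, Mlh3 and Pms1, every day 6 array lay below every day 4 array of both lines. The fall was 1.44-fold in CAG150 (-0.53 ± 0.10, adjusted p = 0.00081) and 1.42-fold in HM1 cells (-0.51 ± 0.10, adjusted p = 0.0014). Both calls held without any 1 of the 12 arrays, as did those of Msh6.

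Ogg1, which works in base excision repair and not in mismatch repair, gave no call. Its brighter probe set read 34.1, 54.6 and 45.5 at day 6 and 58.4, 45.8 and 58.4 at day 4 in CAG150 cells (-0.22 ± 0.14, adjusted p = 0.22). It read 56.2, 45.8 and 45.3 at day 6 and 42.8, 56.1 and 57.5 at day 4 in HM1 cells (-0.06 ± 0.14, adjusted p = 0.75). The days overlapped in both lines, and the 95% intervals were -0.52 to 0.08 in CAG150 and -0.36 to 0.24 in HM1 cells. With quantile normalization Ogg1 in CAG150 came just under the threshold (-0.35, adjusted p = 0.0499). The second probe set of Ogg1 gave -0.05 ± 0.16 in CAG150 and -0.15 ± 0.16 in HM1 cells.

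**Figure D2:**
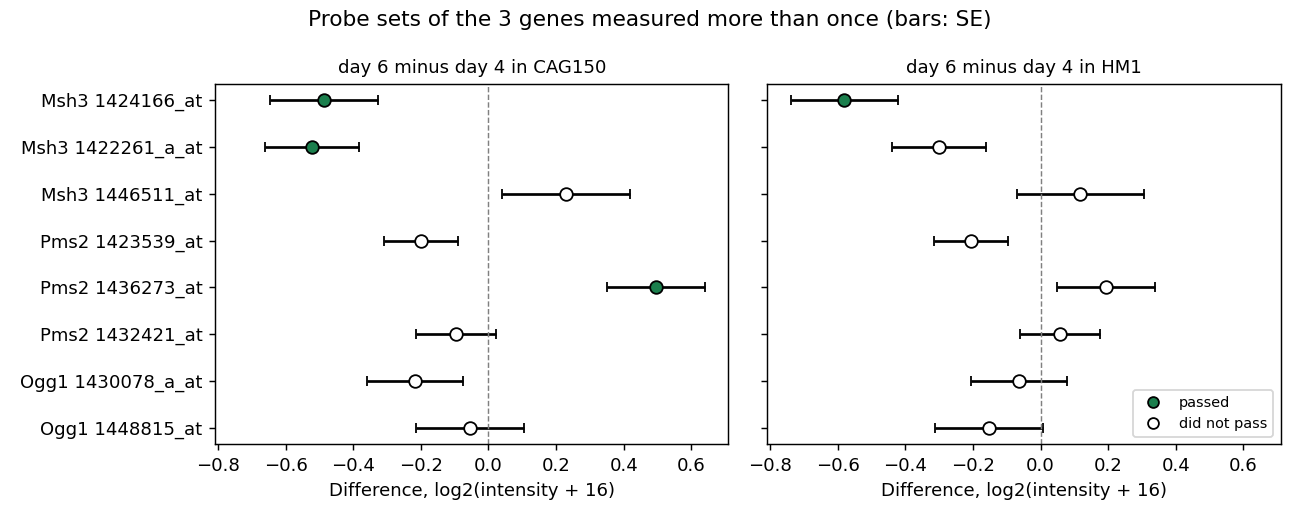
Day 6 minus day 4 differences of log2(intensity + 16) for each tested probe set of Msh3, Pms2 and Ogg1, in CAG150 (left) and HM1 cells (right). Points are estimates, bars are SE, and filled points passed over all probe sets. For Msh3 the 2 brighter probe sets lie below 0 in both lines and 1446511_at above 0, and for Pms2 only 1436273_at passed, in CAG150 cells and above 0.

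By probe set rather than by gene, 6 of the 12 tested probe sets were lower and 1 was higher at day 6 in CAG150 cells, where 14.9% of all probe sets were lower and 18.7% higher. In HM1 cells 4 of the 12 were lower and 0 higher, where 11.5% of all probe sets were lower and 16.3% higher. Groups without overlap, with day 6 below day 4, were seen for 5 of the 7 genes in CAG150 cells, where 27.6% of all genes showed this. They were seen for 6 of the 7 in HM1 cells, where it was 24.3% of all genes. The gene added in HM1 cells was Pms2, by the narrow gap given above.

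The lines themselves were then compared at each day. None of the 7 genes passed in CAG150 against HM1 cells at either day. At day 4, where 7.87% of all genes were higher and 7.92% lower in CAG150, limma called 0 of the 7, and 0 had an unadjusted p under 0.05. At day 6, where 10.1% were higher and 11.2% lower, it called 0 of the 7, and 1 had an unadjusted p under 0.05. These line and day comparisons share arrays and are not independent. No alternative setting that was run produced a call for any of the 7 genes between the lines. Markers of other cells did differ there: of the 10 pluripotent stem cell markers 7 were lower in CAG150 at each day, and of 8 tested fibroblast and smooth muscle markers 5 were. Of 8 tested endoderm markers 6 were lower at day 6 and 5 at day 4. Of the 12 postmitotic neuron markers 9 were higher and 0 lower at day 6, and 6 were higher and 1 lower at day 4.

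The gene with the low unadjusted p at day 6 was Msh6. It read 874, 898 and 919 in CAG150 cells, against 1032, 993 and 986 in HM1 cells. All 3 CAG150 arrays lay below all 3 HM1 arrays, which was so for 19.8% of all genes. The difference was -0.16 ± 0.07 (1.12-fold, unadjusted p = 0.044, adjusted p = 0.14). At day 4 the same gene differed by -0.01 ± 0.07 (adjusted p = 0.93), with a 95% interval of -0.17 to 0.14.

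For the others, intervals of the line difference are given on the brightest probe set, and dimmer probe sets of Msh3 and Pms2 gave larger differences at day 4, as described further on. At day 4 the largest difference was that of Pms1, at 0.24 ± 0.14 (adjusted p = 0.28, 95% interval -0.07 to 0.54). At day 6 the largest after Msh6 was that of Pms2, at 0.12 ± 0.10 (adjusted p = 0.46, 95% interval -0.10 to 0.34). Msh3, the member most often tied to repeat growth in mice, differed by -0.03 ± 0.15 at day 4 (95% interval -0.36 to 0.31) and by 0.07 ± 0.15 at day 6 (95% interval -0.27 to 0.40). Mlh3 differed by 0.11 ± 0.13 at day 4 and -0.02 ± 0.13 at day 6. Lig1 differed by -0.09 ± 0.10 at day 4 and -0.11 ± 0.10 at day 6, and Ogg1 by 0.04 ± 0.14 and -0.11 ± 0.14. Over the brightest probe sets of the 7 genes no 95% interval reached beyond 0.54 in size at day 4 or 0.41 at day 6. A p above the threshold does not show that the lines were alike.

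**Figure D3:**
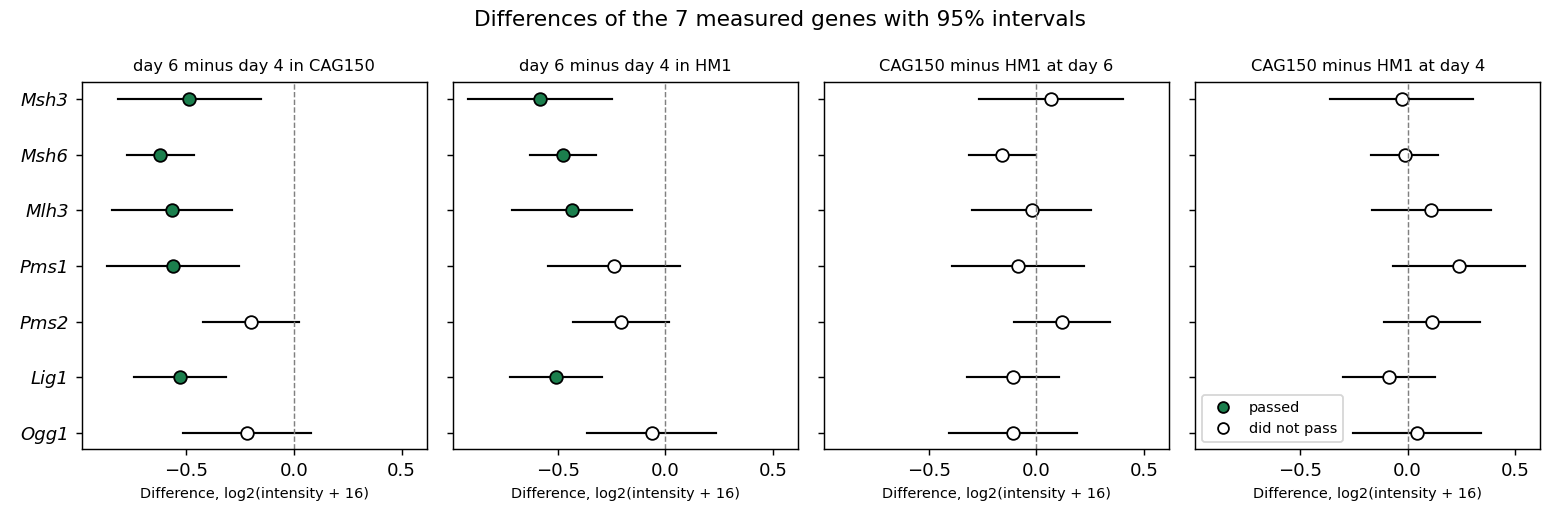
Differences of log2(intensity + 16) for the 7 measured genes in 4 comparisons, with 95% intervals. The first pair of panels shows day 6 minus day 4, in CAG150 and then HM1 cells, and the other pair CAG150 minus HM1, at day 6 and then day 4. Filled points passed: 5 genes in CAG150 and 4 in HM1 cells lie below 0 in the day panels, and 0 of 7 passed in the line panels.

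Among single probe sets, 0 of the 12 passed between the lines, where 5.67% of all probe sets were higher and 4.56% lower in CAG150 at day 4, and 7.83% and 6.7% at day 6. The largest differences were at day 4 and on dim probe sets. Pms2 on 1432421_at read 31.8, 29.4 and 28.4 in CAG150 cells, against 17.4, 25.3 and 17.5 in HM1 cells (0.35 ± 0.12, adjusted p = 0.082). Msh3 on 1422261_a_at read 76.4, 65.5 and 62.4 in CAG150 cells, against 51.9, 42.9 and 55.9 in HM1 cells (0.35 ± 0.14, adjusted p = 0.14). In both the groups did not overlap, but the brightest probe sets of these genes differed by 0.11 ± 0.11 (Pms2) and -0.03 ± 0.16 (Msh3) in the same fit. The Msh3 value on 1422261_a_at lies outside the day 4 interval of its brightest probe set.

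Whether the day difference itself differed between the lines was tested as the CAG150 day difference minus the HM1 day difference. Limma called 0 of the 7 genes, with 0 at an unadjusted p under 0.05, where 1.58% of all genes were called higher and 2.03% lower. Of the 12 probe sets 0 passed, where 0.659% were higher and 0.877% lower. The largest value was that of Pms1, given above, followed by Ogg1 at -0.15 ± 0.19 and Msh6 at -0.15 ± 0.10 (adjusted p = 0.77 and 0.53). Lig1 was at -0.02 ± 0.14 and Msh3 at 0.09 ± 0.22.

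Profiles of the members across the 12 arrays are compared as a description of points that share 4 groups. Pearson's r of the log2 values was 0.94 between Msh6 and Lig1, 0.88 between Msh6 and Mlh3, 0.85 between Lig1 and Mlh3, and 0.82 between Msh6 and Msh3. Msh3 had r of 0.83 with Lig1 and 0.74 with Mlh3. Pms1 had r of 0.81 with Mlh3, 0.78 with Msh6, 0.73 with Lig1, 0.63 with Pms2 and 0.53 with Msh3. Ogg1 had r of 0.20 to 0.51 with all measured members other than Pms2, and 0.68 with Pms2. Among all genes tested, the 3 most like Msh6 were Usp6nl (r = 0.99), Snhg4 (0.988) and Wdr74 (0.988). Those most like Lig1 were Epop (r = 0.979), the splicing factor gene Sf3a2 (0.974) and the helicase gene Ruvbl2 (0.973). For Msh3 they were Qsox2 (r = 0.947), Itfg2 (0.907) and Lrrc8c (0.903), and for Mlh3 the adenosine deaminase gene Ada (0.951), Eif3i (0.949) and Poll (0.929), a DNA polymerase of repair. For Pms1 they were Nsun5, Map2k3 and Pank2, with r of 0.912 to 0.903, and for Pms2 Thada, Gpatch1 and Wdyhv1, with r of 0.921 to 0.886. For Ogg1 the best values were lower, with Cpeb1 at 0.823, E130309D02Rik at 0.806 and Fitm1 at 0.792.

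Most of the tested partners of mismatch repair, which load, copy and cut DNA, were lower at day 6 as well. Of a list of 19 such genes 15 could be tested, and at day 6 in CAG150 cells 10 fell and 0 rose (median -0.40). In HM1 cells 9 fell and 1 rose (median -0.27). For this list and those below, the shares over all genes were 21.9% lower and 22.5% higher in CAG150 cells. In HM1 cells they were 18.5% lower and 20.4% higher. Pold1, the catalytic subunit of DNA polymerase delta, averaged 397 ± 12.1 at day 6 and 863 ± 49.9 at day 4 in CAG150 cells (SD, n = 3 each), a 2.13-fold fall (-1.09 ± 0.10, adjusted p = 1.8e-06). In HM1 cells Pold1 fell 1.84-fold. Its partner subunit Pold2 fell 1.55-fold in CAG150 and 1.53-fold in HM1 cells. Exo1, the exonuclease that removes the faulty strand, fell 1.42-fold in CAG150 (adjusted p = 0.0089) and 1.42-fold in HM1 cells (adjusted p = 0.011).

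Replication genes were mostly lower at day 6 as well, while markers of neurons were higher. Of 23 tested genes of the DNA replication list 16 fell and 1 rose at day 6 in CAG150 cells (median -0.34), and 10 fell and 1 rose in HM1 cells (median -0.30). Cdt1, which licenses replication origins, fell 1.77-fold in CAG150 and 1.61-fold in HM1 cells, and Ccne1, a cyclin of entry into S phase, fell 2.55-fold and 1.91-fold. The gene of this list that rose was Mki67 in both lines. Its differences were 0.26 ± 0.10 in CAG150 (limma adjusted p = 0.045) and 0.28 ± 0.10 in HM1 cells (adjusted p = 0.036). Of the 12 postmitotic neuron markers 12 rose in CAG150 (median 2.43) and 11 in HM1 cells (median 2.27). Neural progenitor markers mostly rose too, with 9 of 10 higher and 1 lower in CAG150 and 8 and 1 in HM1 cells. The marker that fell was Sox1, by 1.79-fold in CAG150 and 2.58-fold in HM1 cells. The summed intensity of the 10 progenitor markers was 23318 to 24607 in CAG150 and 22710.5 to 24484 in HM1 cells at day 6. At day 4 it was 12587.5 to 12898 in CAG150 and 10902 to 12737 in HM1 cells. Pluripotent stem cell markers went both ways, with 4 of 10 higher and 2 lower in CAG150 and 3 and 2 in HM1 cells. Of 8 tested endoderm markers 3 rose and 1 fell in CAG150, and 6 rose and 1 fell in HM1 cells. Of 8 tested fibroblast and smooth muscle markers 0 rose and 5 fell in CAG150, and 4 rose and 2 fell in HM1 cells. The part of these shifts in the falls of the members was not tested.

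Neighbouring repair pathways were counted in the same way, and differences between lists were not tested. Of 19 tested genes of base excision and single-strand break repair 7 fell and 2 rose in CAG150 (median -0.20), and 6 fell and 1 rose in HM1 cells (median -0.25). Ung, which removes uracil from DNA, fell 2.49-fold in CAG150 and 1.88-fold in HM1 cells. Of 19 Fanconi and crosslink repair genes 7 fell and 2 rose in CAG150 (median -0.14), and 8 fell and 0 rose in HM1 cells (median -0.27). Fancd2, a central protein of that pathway, fell 1.81-fold in CAG150 and 1.44-fold in HM1 cells. Other genes tied to repeat instability went both ways, with 2 of 11 higher and 2 lower in CAG150 and 3 and 3 in HM1 cells. These counts lie near the shares over all genes, 22.5% higher and 21.9% lower in CAG150 and 20.4% and 18.5% in HM1 cells. Rrm2b, which makes DNA building blocks outside S phase, rose 1.24-fold in CAG150 and 1.52-fold in HM1 cells.

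**Figure D4:**
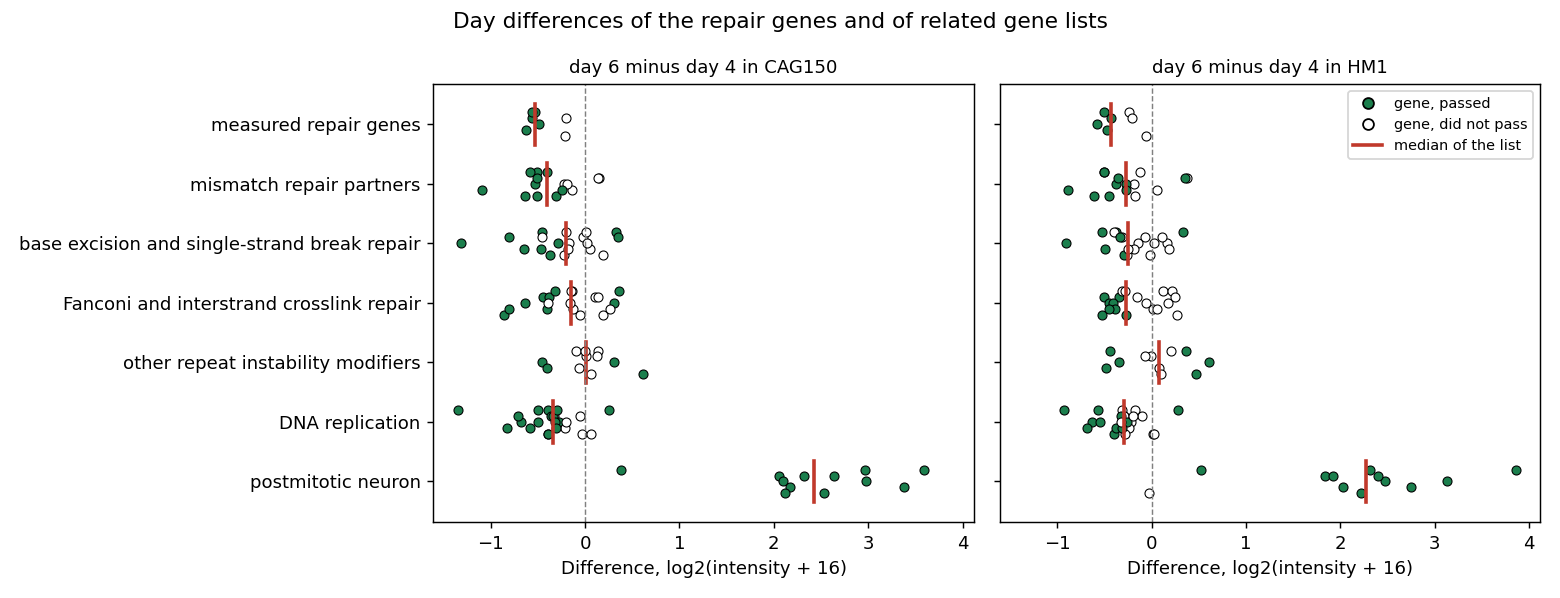
Day 6 minus day 4 differences of log2(intensity + 16) for every tested gene of the measured repair genes, of 5 related gene lists and of the postmitotic neuron markers, in CAG150 (left) and HM1 cells (right). Points are genes, filled where they passed, and red bars are list medians: -0.53 and -0.43 for the repair genes, -0.40 and -0.27 for the mismatch repair partners, and 2.43 and 2.27 for the neuron markers.

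Between the lines, calls in these related lists lay mostly on chromosomes 8 and 11, which hold none of the 8 members. Genes of these chromosomes were shifted upward in CAG150 cells as a whole, with a median difference of 0.18 at day 4 and 0.23 at day 6, against -0.02 and -0.03 for all other genes. The members lie on chromosomes 13 (Msh3), 17 (Msh6), 12 (Mlh3), 1 (Pms1), 5 (Pms2), 7 (Fan1 and Lig1) and 6 (Ogg1). Of 19 tested list genes on chromosomes 8 and 11, 8 were higher in CAG150 at day 4 and 7 at day 6, and 0 were lower. Of the 68 list genes elsewhere, 2 were higher and 0 lower at day 4, and 2 were higher and 3 lower at day 6. Over all genes, 7.87% were higher and 7.92% lower at day 4, and 10.1% and 11.2% at day 6. Calls among all genes of chromosomes 8 and 11 were not counted, so these counts are not read as a trait of the lists. Polb, the gap-filling polymerase of base excision repair on chromosome 8, averaged 729 ± 21.9 in CAG150 and 506 ± 26.3 in HM1 cells at day 6 (SD, n = 3 each), a 1.43-fold difference (0.51 ± 0.08, adjusted p = 0.00069). Lig3, a ligase of single-strand break repair on chromosome 11, was 1.36-fold higher in CAG150 at day 6 (adjusted p = 0.0040). This split by chromosome was made after the data were seen. Whether chromosome position bears on the line differences of the members or of the lists was not tested.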

How the data were processed

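Intensities on a linear scale were deposited by the authors as 1 table of 45101 probe sets, 64 of them controls and left out. Read from the deposited values, each array is scaled so that its mean without the top and bottom 2% is 150, and no source used here names the software. Groups came from the sample titles, although the descriptions of the 3 HM1 samples titled day 6 give day 4, and those of all 6 samples titled day 6 give replicate 1. Of the probe sets, 34945 have a single symbol in the platform annotation and 932 several. Values were taken as log2(intensity + 16), each gene was read by its probe set with the highest mean, and genes were kept where that mean exceeded the 40th percentile over probe sets (4.8 on the log2 scale). Limma 3.58.1 in R 4.3.3 fitted 4 group means to all 12 arrays (8 residual and 4.46 prior degrees of freedom), with 5 comparisons and two-sided p-values adjusted over all genes. A second fit covered all 27022 probe sets above the filter. The fit was tested on simulated data. The members, the gene lists, the rule for named genes and the motifs were chosen with earlier results of these data known. The text names every member and, from each list and comparison, genes among the 4 with the largest difference that passed, plus the 3 genes most correlated with each member. Mki67, Sox1 and Stmn2 are named in addition, as they went against most of their lists. A planned search for protein motifs was not run, as no protein sequence was used here. Chromosome names of genes came from RefSeq (GRCm38.p6). Gene counts of related lists are descriptions without a list test. The split of list genes by chromosome and the E2F search were added after the data, and for the search the promoters, were seen. Alternatives were other scalings, filters, pseudocounts, probe set rules, groups in the fit, a replicate block and leaving out each array.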

Additional observations from a re-analysis of the deposited data

How the results depend on the processing

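The counts of members that passed stayed at 4 to 6 in CAG150 and 3 to 5 in HM1 cells between days, and at 0 in both line comparisons and in the difference between lines, under every alternative run, with 4 to 5, 3 to 4 and 0 when single arrays were left out. The falls of Msh6 and Lig1 passed under all of them. Replicate numbers are shared between groups. Deviations of same-numbered samples from their group means had correlations of -0.133 to 0.122 over genes, and differently numbered samples were not compared. The main fit did not pair samples by number. With the replicate block the counts were 5 in CAG150, 4 in HM1 and 0 in the other 3 comparisons, with no member changing its call. Median centring moved the median day difference of all genes by -0.10 in both lines and that between lines by -0.06. It lowered the share of called genes that were higher to 36.2% in CAG150 and 36.2% in HM1 cells between days (against 50.6% and 52.4%), to 31.4% at day 4 and to 33.4% at day 6 between lines (against 49.8% and 47.4%), while all 7 members stayed below 0 between days. Differences that changed sign had all missed the threshold. Between lines at day 4 these were Msh3 with the mean of probe sets (0.038), Msh6 with quantile normalization (0.015), and Ogg1 with quantile normalization (-0.025) and median centring (-0.019), and between days Pms2 with the mean of probe sets (0.067 in CAG150, 0.016 in HM1). Leaving out 1 array at a time gave, between lines at day 4, -0.12 to 0.12 for Msh3, -0.034 to 0.013 for Msh6, -0.0029 to 0.21 for Mlh3 and -0.058 to 0.13 for Ogg1. At day 6 it gave -0.015 to 0.20 for Msh3, -0.12 to 0.041 for Mlh3, -0.18 to 0.052 for Pms1 and -0.23 to 0.022 for Ogg1. For the difference between the lines' day differences it gave -0.055 to 0.23 for Msh3, -0.090 to 0.084 for Pms2 and -0.10 to 0.049 for Lig1. Over all genes, calls in that last comparison numbered 443, against 295 with no filter and 269 without replicate 3 of CAG150 at day 6. The cause of these changes was not tested. Dim probe sets, such as those of Ogg1, limit what could be seen.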
